A study of Mus musculus with 7 samples.

Results

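The genes described here are 31 subunits of the receptors for glutamate and GABA, the main excitatory and the main inhibitory transmitter of the brain. They were taken by gene name from the array design, and all 31 were on the array and passed the filter on dim probes, out of 23325 genes or other features that did. By receptor class they are 4 AMPA, 6 NMDA and 5 kainate receptor subunits, 6 metabotropic glutamate receptors, 8 GABA-A and 2 GABA-B receptor subunits. RNA of mouse brain was hybridised in 1 colour to 7 oligonucleotide arrays, 1 sample to an array. There were 3 arrays of Pla2g2e -/- mice on day 3 (KO), 3 of wild type mice on day 3 (WT) and 1 of a wild type sham mouse. All groups were males on the C57BL/6N background. Day 3 follows a transient occlusion of the middle cerebral artery for 60 min, a model of stroke, and the protocol field names that occlusion for every sample, the sham included. Pla2g2e encodes a secreted phospholipase A2, and nothing in the labels says how the allele was made or whether it is absent from particular cells only. The labels give the tissue as brain, with no region or hemisphere. They do not state whether each replicate is another animal, so a p-value here measures only how far these samples spread, and part of that spread may be technical.

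AMPA, NMDA and kainate receptors are tetrameric cation channels that glutamate opens. The metabotropic receptors for glutamate act through G proteins. GABA-A receptors are pentameric chloride channels, and GABA-B receptors are G protein coupled dimers of Gabbr1 and Gabbr2. In brain most of these subunits are made mainly by neurons, while a few, among them Grm3 and Gabrg1, are also well known from glia. In bulk tissue, fewer cells of a type and less RNA per cell cannot be told apart.

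Each value below is the log2 of a probe's processed signal minus the array's 75th percentile of that signal, so a difference of 1 is a 2-fold difference and values below 0 are only dimmer than that percentile. Values are listed for replicates 1, 2 and 3 in that order. Different probes bind with different strength, so a level is set only against the same probe on other arrays. Every p is from limma, two-sided, and every adjusted p was adjusted after Benjamini and Hochberg over all features.

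Markers of injury and of neurons set 1 array apart from the other 6, and it was not the sham array. The median of 10 microglia and phagocyte markers was 5.08, 4.66 and 5.32 on the KO arrays, 1.00, 5.06 and 4.95 on the WT arrays and 4.92 on the sham array, and 10 of 10 were lowest on the array labelled WT day 3 replicate 1. Of 8 reactive astrocyte markers, 8 were lowest on that array, where their median was -2.54 against 2.69 to 3.35 on the others. The 12 neuron markers were all highest there, with a median of 4.09 against 0.52 to 2.28. Its correlation with the others over all features was 0.857 to 0.916 (6 pairs), against 0.968 to 0.991 for the other 15 pairs, as a description. The array labelled sham thus lay with 5 of the day 3 arrays in these markers, and the array labelled WT day 3 replicate 1 did not. Samples are named by their labels throughout, and the differences between groups are given with and without that array. The KO arrays were on 1 slide and the WT and sham arrays on the other, and the effects of genotype and slide cannot be told apart. With all arrays Pla2g2e itself did not separate the genotypes. It was at -4.44, -5.83 and -4.97 on the KO arrays, at -6.89, -3.68 and -3.36 on the WT arrays and at -4.69 on the sham array. WT replicates 2 and 3 were thus above every KO array, and WT replicate 1 was below every one. The difference of Pla2g2e, KO minus WT, was -0.43 ± 1.02 (SE) with all arrays, with an adjusted p of 0.889 (limma). Its difference without WT replicate 1 is not reported here. The labels do not say which part of the gene was deleted, and whether the probe lies within it was not tested. How its signal stood against background on each array is not given here. Gabrd and Grik3, 16.3 Mb and 13.0 Mb from that probe on chromosome 4 (mm9), are the closest of the subunits to it.

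All 31 subunits were highest on the array labelled WT day 3 replicate 1, as were 43.9% of all features. Above the median of the other 6 arrays, this array was higher by 2.68 at the median subunit, against 0.15 at the median feature. The gap ran from 1.14 (2.21-fold) for Grm2 to 5.05 (33.1-fold) for Gabra4, and it was over 2-fold in 31 of 31 subunits and in 21.3% of all features. Within the KO group replicate 2 was the highest of the KO arrays in 30 of 31 subunits, against 33.7% of all features, with Grm2 the exception. Among the other 6 arrays the subunits spanned between 0.40 (Grm2) and 3.59 (Gabra4).

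**Figure D1:**
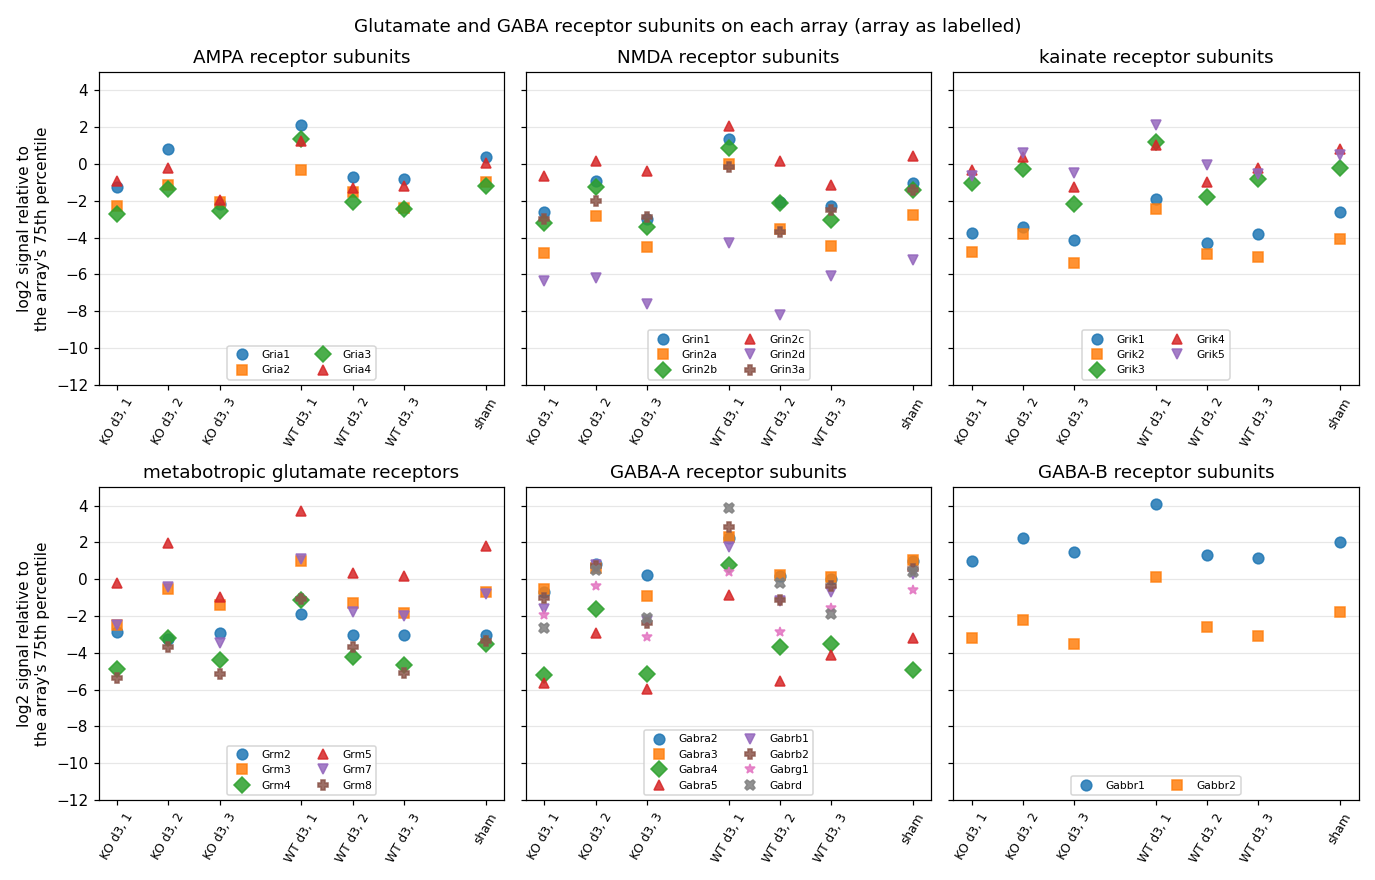
Log2 signal of each subunit, relative to the array's 75th percentile (vertical axis), on each of the 7 arrays (horizontal axis: KO day 3, WT day 3, sham), 1 panel for each receptor class and 1 symbol for each gene. In every panel all symbols are highest on the array labelled WT day 3 replicate 1. Heights of different genes are not comparable, since each comes from its own probe.

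Knockout and wild type on day 3 were compared first, which asks whether loss of Pla2g2e goes with another receptor mRNA content after stroke. No subunit passed the threshold of 0.05 on the adjusted p, and neither did any feature (0 of 23325, 0.0%). All 31 subunits were estimated lower in KO, as were 53.1% of all features, with differences from -2.01 (Gabrd) to -0.33 (Grik4) and standard errors of 0.37 to 1.65. Their median was -0.82, against -0.03 over all features, and the adjusted p was 0.862 to 0.882 (limma). No subunit had an unadjusted p under 0.05 either, as 0.845% of all features did. In 31 of 31 the KO and WT values overlapped, while 2.65% of all features lay lower in every KO array than in every WT array and 1.88% higher. Without the array labelled WT day 3 replicate 1, 13 subunits were estimated lower and 18 higher (49.7% of all features were lower). Their median was then 0.03 and the extremes were -0.45 (Gabra3) and 0.48 (Grin3a). No subunit had an unadjusted p under 0.05 in that fit, as 1.63% of all features did. With array weights 1 subunit, Gabra3, had one (5.66% of all features), with a difference of -0.77 and an adjusted p of 0.817 (limma).

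**Figure D2:**
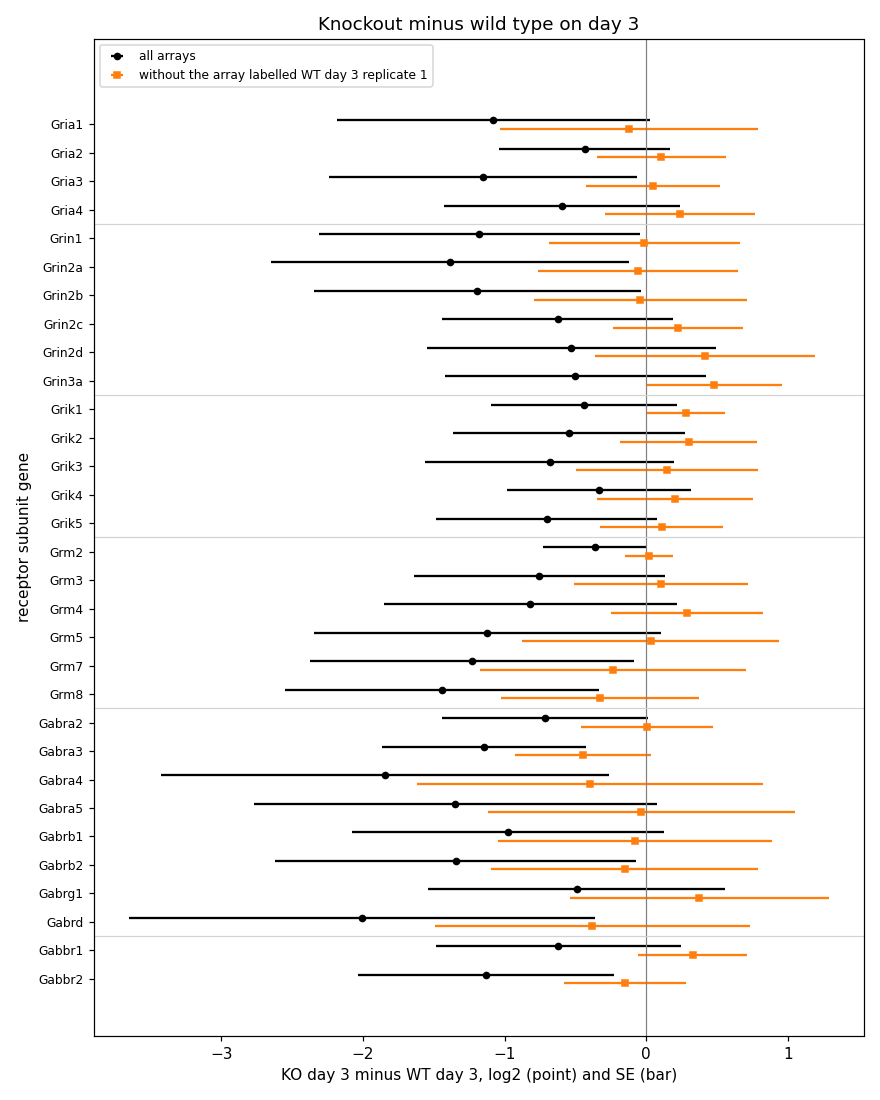
Difference of KO day 3 minus WT day 3 on the log2 scale (horizontal axis, points) with its standard error (bars) for the 31 subunits in order of class, from all arrays (black circles) and without the array labelled WT day 3 replicate 1 (orange squares). All black circles are below 0, from -2.01 to -0.33, and the orange squares lie on both sides of 0, from -0.45 to 0.48.

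Of the AMPA receptor subunits, which carry most of the fast excitatory current, all 4 were estimated lower in KO than in WT, with a class median of -0.84, and at 0.08 without the array labelled WT day 3 replicate 1. Gria1 was at -1.28, 0.79 and -2.20 on the KO arrays, at 2.10, -0.74 and -0.81 on the WT arrays and at 0.37 on the sham array. Gria2, the subunit that after RNA editing keeps the channel closed to calcium, was at -2.31, -1.14 and -2.09 (KO), -0.33, -1.53 and -2.37 (WT) and -1.00 (sham). Gria3 was at -2.73, -1.35 and -2.57 (KO), 1.34, -2.09 and -2.44 (WT) and -1.20 (sham). In all 3 of these genes the highest WT value is that of replicate 1, and the other WT values lie within the range of the KO arrays, except for Gria2 replicate 3, which is below it. The KO minus WT difference was -1.08 ± 1.10 for Gria1, -0.43 ± 0.60 for Gria2 and -1.15 ± 1.09 for Gria3 (SE). Gria4 was -0.91, -0.22 and -1.95 in KO, 1.23, -1.33 and -1.21 in WT and 0.06 in sham, a difference of -0.60 ± 0.83 (SE), KO minus WT. Without WT replicate 1, Gria1 was the only AMPA subunit estimated lower, by a difference of -0.12 ± 0.91 (SE).

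NMDA receptors need Grin1 together with a second kind of subunit and pass calcium, and they are the receptors best known for glutamate toxicity in ischemia. All 6 measured members were estimated lower in KO, with a median of -0.90, and the median was 0.11 without WT replicate 1, with 3 lower and 3 higher. Grin1, the obligatory subunit, was at -2.62, -0.90 and -3.02 (KO), 1.33, -2.06 and -2.28 (WT) and -1.04 (sham). Grin2a, which prevails in the mature forebrain, was at -4.84, -2.81 and -4.51 (KO), -0.01, -3.54 and -4.45 (WT) and -2.78 (sham). Grin2b, which prevails early in development, was at -3.20, -1.27 and -3.41 (KO), 0.87, -2.15 and -3.02 (WT) and -1.39 (sham). In each of the 3, KO replicate 2 and the sham array had nearly the same value, 1 array had a far higher one, and the other 4 arrays were lower. Their differences, KO minus WT, were -1.18 ± 1.13, -1.39 ± 1.26 and -1.19 ± 1.15 (SE) with all arrays, and -0.01, -0.06 and -0.04 without WT replicate 1.

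Grin3a, which lowers the calcium flux of the receptors that hold it, was at -2.97, -2.03 and -2.90 (KO), -0.17, -3.70 and -2.52 (WT) and -1.43 (sham). The difference of KO minus WT, 0.48 ± 0.48 (SE), was the highest of the 31 without WT replicate 1, and -0.50 ± 0.92 with it. Grin2c, known mainly from the cerebellum, was at -0.63, 0.17 and -0.36 in KO, 2.05, 0.14 and -1.14 in WT and 0.44 in sham. Grin2d had the dimmest probe of the class, well above background on 5 of 7 arrays, and ranged from -7.62 to -6.19 in KO and from -8.18 to -4.32 in WT. It was at -5.24 on the sham array, and KO replicate 3 and WT replicate 2, its lowest values, were the arrays where it was not well above background.

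The kainate receptor subunits modulate transmitter release and excitability on both sides of the synapse. Their median for KO minus WT, -0.54, was the nearest to 0 of the 6 classes, and all 5 were estimated higher without WT replicate 1, by 0.11 to 0.30. Grik1 was at -3.77, -3.40 and -4.11 (KO), -1.88, -4.28 and -3.80 (WT) and -2.60 (sham). Grik4, a subunit that needs Grik1, Grik2 or Grik3 as a partner, was at -0.32, 0.38 and -1.25 (KO), 1.01, -1.00 and -0.20 (WT) and 0.81 (sham). For Grik4 the array labelled WT day 3 replicate 1 was only 0.20 above the next highest, the sham array, the smallest such step of the 31. Grik5, the other partner subunit, was at -0.65, 0.58 and -0.49 in KO, 2.14, -0.07 and -0.52 in WT and 0.49 in sham. Grik2 ranged from -5.39 to -3.83 (KO), from -5.07 to -2.44 (WT), with -4.08 in sham, and Grik3 from -2.16 to -0.28 (KO), from -1.80 to 1.18 (WT), with -0.19 in sham.

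Among the metabotropic receptors, Grm5, which drives calcium release from stores at postsynaptic sites, was at -0.19, 1.98 and -0.95 (KO), 3.71, 0.35 and 0.16 (WT) and 1.78 (sham). The other 5 are coupled to inhibition of adenylyl cyclase. Grm3, which is abundant in astrocytes, was at -2.49, -0.52 and -1.42 (KO), 0.99, -1.31 and -1.85 (WT) and -0.71 (sham). Grm8, a presynaptic receptor, was at -5.39, -3.66 and -5.14 (KO), -1.05, -3.70 and -5.11 (WT) and -3.38 (sham), a difference of -1.44 ± 1.11 (SE) for KO minus WT. All 3 followed the order seen in the NMDA subunits, with the array labelled WT day 3 replicate 1 on top and KO replicate 2 next to the sham array. Grm4 and Grm7, both presynaptic, differed by -0.82 ± 1.03 and -1.23 ± 1.14 (SE), KO minus WT. The class median was -0.97, and 0.03 without WT replicate 1.

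Grm2, an autoreceptor of glutamate terminals, varied least. It was at -2.84, -3.24 and -2.93 on the KO arrays, at -1.88, -3.03 and -3.01 on the WT arrays and at -3.05 on the sham array. Apart from WT replicate 1, the values spanned 0.40, the smallest range of the 31 over those 6 arrays, and it was the one subunit that was not highest in KO replicate 2 among the KO arrays. The difference, KO minus WT, was -0.36 ± 0.37 (SE), and 0.02 ± 0.17 without WT replicate 1. The gene was singled out after these values were seen, and its promoter is shown because of 2 runs of letters found in it, from the RefSeq table (GRCm38.p6, 250 bases before to 50 after the start). It lies at chr9:106656060-106656359 on the minus strand. The capitals mark TTCAGCACC and GGACAGC, the arms of the RE1 element that the repressor REST, known for silencing neuronal genes in other cells, binds in its full form.
Grm2 promoter: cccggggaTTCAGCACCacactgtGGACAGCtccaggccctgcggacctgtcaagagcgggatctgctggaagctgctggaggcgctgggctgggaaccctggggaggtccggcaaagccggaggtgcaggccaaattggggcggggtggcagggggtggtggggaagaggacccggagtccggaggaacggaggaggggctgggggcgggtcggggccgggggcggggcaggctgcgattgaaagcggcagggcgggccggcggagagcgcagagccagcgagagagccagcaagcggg
Both strands of 29 promoters of 22 subunit genes were searched. The windows of Grm7 overlap each other, as do those of Gabra3, so letters they share count more than once. TTCAGCACC occurred in Grm2 alone of the 22 genes, and in 0.371% of all 32851 promoters. GGACAGC occurred in Gria2 and Grm2, and in 6.56% of all. The arms lay within 25 bases of each other, left arm first, in 12 promoters (0.0365%), Grm2 among them, and that window was set after the match was seen. The GC box GGGCGG, bound by SP1, was in 15 of the 29 (51.7%), from 14 genes, against 35.7% of all promoters. TATAAA was in 10.3% of the 29, from 2 genes, and in 13.6% of all. GCGGGGGCG, bound by EGR1, was in 6.90% and 2.91%, and GCATGCGC, within the motif bound by NRF1, in 3.45% and 2.71%. A longer form of that motif was searched first. TGACGTCA and its core TGACGT, bound by CREB, were in 0 of the 29 and in 1.79% and 7.51% of all. TGACGT lies within TGACGTCA, and the letters searched were chosen after the values were seen. A match is a description of letters and not a site of binding.

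GABA-A receptor subunits had the lowest class median for KO minus WT, -1.25, and -0.12 without WT replicate 1, when 6 of 8 were estimated lower. Gabrd, a subunit of receptors outside the synapse that give tonic inhibition, had the largest difference of all 31, at -2.01 ± 1.65 (SE). It was at -2.63, 0.50 and -2.10 (KO), 3.85, -0.19 and -1.87 (WT) and 0.38 (sham). Gabra5, also a subunit of tonic receptors, was at -5.64, -2.92 and -5.99 (KO), -0.87, -5.53 and -4.10 (WT) and -3.18 (sham). Gabra3 had the smallest p of the 31, with -0.53, 0.61 and -0.90 (KO), 2.27, 0.23 and 0.11 (WT) and 1.06 (sham), a difference of -1.15 ± 0.72 (SE), and -0.45 ± 0.48 without WT replicate 1. For Gabra3 both lowest values were KO arrays, but KO replicate 2 was above 2 of the WT arrays. Gabrb2, a partner of the most common synaptic receptors, was at -1.01, 0.70 and -2.39 (KO), 2.83, -1.11 and -0.38 (WT) and 0.56 (sham).

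Gabrg1, Gabra2, Gabra4 and Gabrb1 stand in a row on chromosome 5. Gabra2, an alpha subunit of the forebrain, was at -0.71, 0.80 and 0.20 (KO), 2.25, 0.17 and 0.01 (WT) and 1.00 (sham). Gabrb1 was at -1.60, 0.78 and -2.27 (KO), 1.75, -1.19 and -0.71 (WT) and 0.29 (sham), and Gabrg1, a gamma subunit also found in glia, at -1.97, -0.38 and -3.16 (KO), 0.38, -2.85 and -1.57 (WT) and -0.56 (sham). In these 3 the sham array was exceeded by 1 or 2 of the other arrays. Gabra4, the partner of Gabrd in forebrain tonic receptors, was at -5.22, -1.63 and -5.16 (KO), 0.74, -3.69 and -3.52 (WT) and -4.92 (sham), so that 4 arrays were above the sham array. The rank of the sham array was lower only in Grm2, where 5 arrays were above it. Gabra4 was singled out after its values were seen, and rests on 1 probe with 1 spot, in column 85, the last column of the array. Over 312 kept probes in that column, the sham array was lower than the median of the KO arrays and WT replicates 2 and 3 by a median difference of -0.31, against 0.00 for all kept probes and -1.22 for Gabra4. The part of the spot's place in the result was not tested. The probe, at chr5:71961055-71961114 on the minus strand (mm9), is shown since the result rests on it alone.
Gabra4 probe: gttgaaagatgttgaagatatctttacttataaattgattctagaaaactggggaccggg
Gabra4 and Gabrb1 are read in opposite directions from starts 387 bases apart in RefSeq (GRCm38.p6). Each of these starts lies downstream of the other, so the pair is read toward each other across that stretch. Their promoter windows are shown to set this pair beside its unlike values in the sham array. That of Gabra4 is at chr5:71658259-71658558 on the minus strand and that of Gabrb1 at chr5:71657671-71657970 on the plus strand. Capitals mark the GC box, read on the other strand as CCGCCC.
Gabra4 promoter: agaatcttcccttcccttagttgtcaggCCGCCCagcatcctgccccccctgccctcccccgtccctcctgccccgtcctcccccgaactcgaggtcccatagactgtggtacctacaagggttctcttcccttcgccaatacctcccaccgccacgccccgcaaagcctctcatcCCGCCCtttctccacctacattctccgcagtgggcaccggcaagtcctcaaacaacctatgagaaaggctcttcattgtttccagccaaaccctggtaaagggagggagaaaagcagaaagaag
Gabrb1 promoter: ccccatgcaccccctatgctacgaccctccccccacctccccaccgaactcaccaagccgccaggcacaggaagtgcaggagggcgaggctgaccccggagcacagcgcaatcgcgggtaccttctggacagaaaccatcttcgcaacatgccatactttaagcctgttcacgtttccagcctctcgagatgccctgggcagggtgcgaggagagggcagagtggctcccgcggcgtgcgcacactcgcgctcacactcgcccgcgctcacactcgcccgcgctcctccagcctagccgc
The GC box was found on 2 places in the window of Gabra4 and in neither window of Gabrb1, whose other start lies farther downstream.

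**Figure D3:**
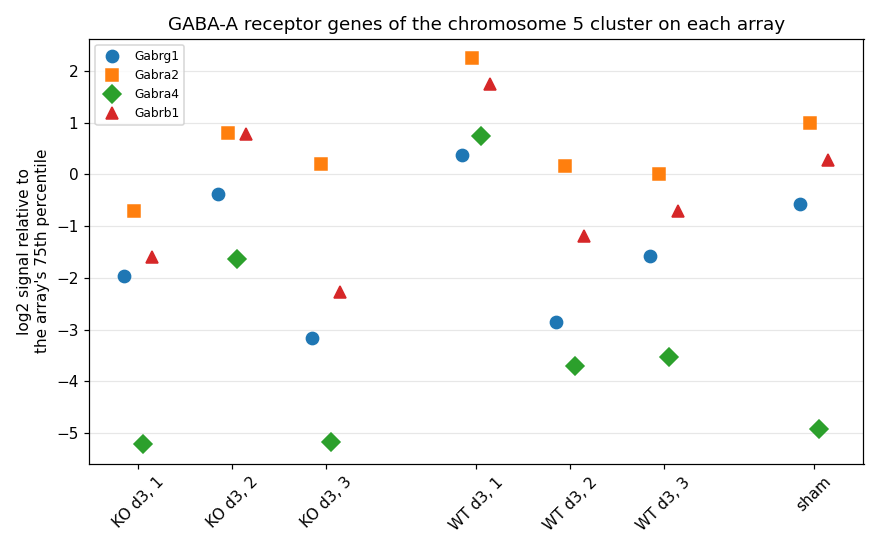
Log2 signal relative to the array's 75th percentile (vertical axis) of Gabrg1, Gabra2, Gabra4 and Gabrb1 on each array (horizontal axis: KO day 3, WT day 3, sham). On the sham array Gabra4, at -4.92, is near its lowest values (-5.22 and -5.16 on KO arrays), while Gabrb1, at 0.29, is below only WT replicate 1 and KO replicate 2.

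The GABA-B receptor needs both of its subunits, Gabbr1 to bind GABA and Gabbr2 to reach the surface and signal. Gabbr1 was at 0.98, 2.21 and 1.47 (KO), 4.07, 1.31 and 1.15 (WT) and 2.01 (sham), a difference of -0.62 ± 0.87 (SE) for KO minus WT and 0.33 ± 0.39 without WT replicate 1. The brightest probe of Gabbr2, called probe 1, gave -3.19, -2.24 and -3.50 (KO), 0.11, -2.60 and -3.06 (WT) and -1.78 (sham), a difference of -1.13 ± 0.90 (SE) and -0.15 ± 0.43 without WT replicate 1. The class had 2 of 2 estimated lower with all arrays and 1 of 2 without that array.

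Gabbr2 was the gene whose probes disagreed most. Its probe 3 gave -6.26, -4.70 and -6.55 (KO), -2.05, -5.56 and -5.44 (WT) and -4.19 (sham) with the same 3 arrays on top as in probe 1, namely WT replicate 1, the sham array and KO replicate 2. Its probe 2 gave -3.77, -4.94 and -3.98 (KO), -4.19, -4.15 and -4.67 (WT) and -4.61 (sham), a range of 1.17 with KO replicate 1 on top. Probe 2 was the only one of the 52 probes of the 31 genes that was not highest on the array labelled WT day 3 replicate 1, as 44.4% of the 29995 kept probes were. The difference of KO minus WT was 0.10 for probe 2 and -1.49 for probe 3. Unlike the other Gabbr2 probes, probe 2 has no position on the genome in the files. Of the other genes with over 1 probe (17 with Gabbr2), 4 had probes whose KO minus WT differences lay over 0.5 apart, namely Gria2, Grm4, Gabra3 and Grm5. For Gria2 the brighter probe gave -0.43 and spanned 2.05 over the 7 arrays, and the dimmer gave -1.23 and spanned 4.45. For Gabra3 the brighter probe gave -1.15, and the dimmer, well above background on 5 of 7 arrays, gave -0.46. The median spread of the 17 genes was 0.32. Probes of different subunit genes shared at most 11 bases in a row (1301 pairs), so none of them was a copy of another subunit gene's probe. Matches to transcripts of other genes were not searched.

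**Figure D4:**
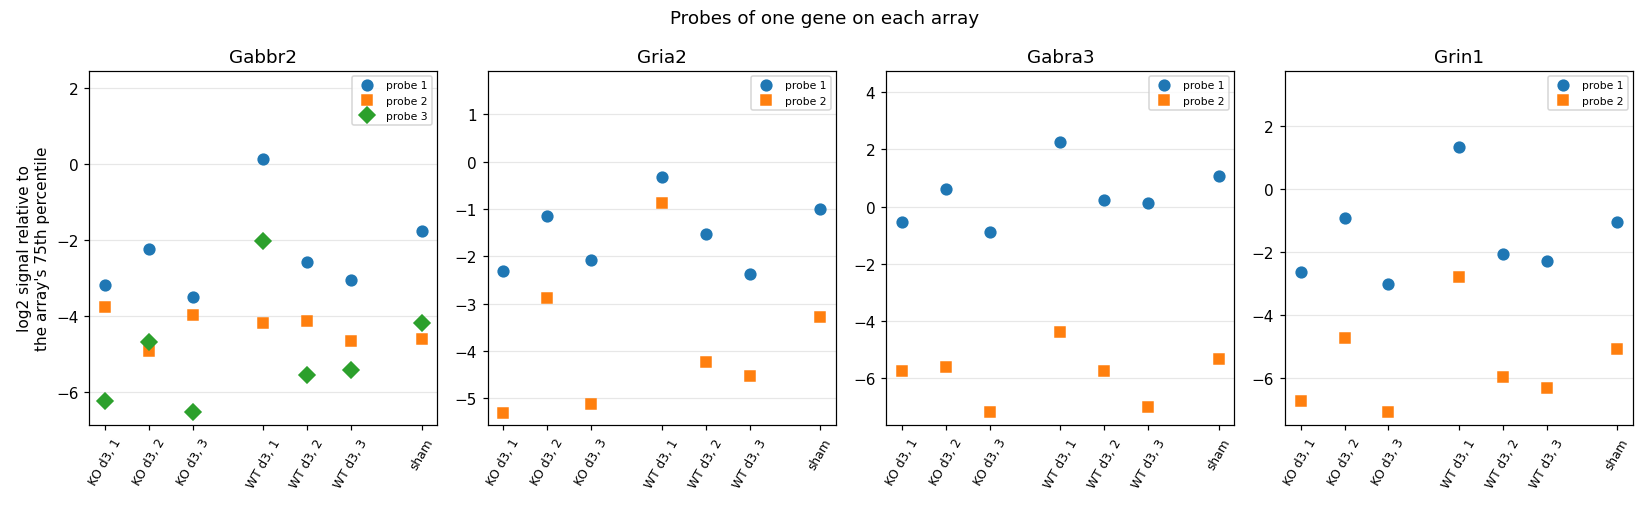
Log2 signal relative to the array's 75th percentile (vertical axis) of every kept probe of Gabbr2, Gria2, Gabra3 and Grin1, numbered from the brightest down, on each array (horizontal axis: KO day 3, WT day 3, sham). Gabbr2 probe 2 stays between -4.94 and -3.77 while the other Gabbr2 probes are highest on the array labelled WT day 3 replicate 1. Both Grin1 probes are highest on that array.

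The ratio of 2 subunits within an array does not change with the scaling of the array, so 6 pairs were compared between KO and WT by exact permutation, two-sided, for which the smallest possible p is 0.10 with 3 arrays a group. The log2 ratio of Grin2a to Grin2b was -1.64, -1.54 and -1.10 (KO), -0.87, -1.39 and -1.43 (WT) and -1.38 (sham), a difference of -0.20 for KO minus WT. It varied far less than either gene, with an SD of 0.29 in KO and 0.31 in WT. The ratio of Gabbr2 to Gabbr1 was -4.18, -4.45 and -4.97 (KO), -3.96, -3.91 and -4.21 (WT) and -3.79 (sham). Its difference was -0.51, with the smallest p of the 6 (exact permutation p = 0.20). The differences were 0.65 for Gria2 to Gria1, 0.16 for Grik2 to Grik5, -0.64 for Gabra5 to Gabra2 and -0.16 for Gabrd to Gabra4. Without WT replicate 1 they were 0.23, 0.19, -0.04 and 0.017 in that order, with -0.02 for Grin2a to Grin2b and -0.48 for Gabbr2 to Gabbr1. The adjusted p over the 6 pairs was 0.72 to 0.80 (exact permutation). The ratio of Gabrd to Gabra4 was 5.30 on the sham array and 1.65 to 3.51 on the day 3 arrays, where Gabra4 was low on the sham array as given above.

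The arrays labelled day 3 were next set against the single sham array, as the design asks of the occlusion. The array labelled sham carried injury markers at the level of 5 day 3 arrays, with medians of 4.92 for microglia and 2.69 for reactive astrocytes, and the array labelled WT day 3 replicate 1 did not, with 1.00 and -2.54. The values below follow the labels, and whether these 2 labels were exchanged was not tested. These comparisons share the sham array with each other and the day 3 arrays with the comparison above, and the sham array was assumed to vary like the rest. In WT minus sham, 21 of 31 subunits were estimated lower with a median of -0.09, against 45.9% and 0.03 for all features. None passed the threshold, as 3 of 23314 features did (0.0129%). Without the array labelled WT day 3 replicate 1, 29 of 31 were lower (49.2% of all features), with a median of -1.11 against 0.01, and none passed, as 6 features did (0.0257%). In KO minus sham 29 of 31 were lower (49.6% of all features), with a median of -1.20 against 0.00, and again none passed, as 3 of 23314 features did (0.0129%). The 2 subunits not estimated lower were Gabra4 and Grm2 in both of these last comparisons. Their values were 1.31 and 0.03 for WT minus sham without WT replicate 1, and 0.91 and 0.05 for KO minus sham. With all arrays at equal weight no subunit had an unadjusted p under 0.05 against sham, as 1.13% of all features did in WT minus sham and 1.32% in KO minus sham. With array weights, 15 of 31 had one in WT minus sham and 21 in KO minus sham, all of them lower, as 26.0% and 29.4% of all features did in either direction. Those weights were 5.81 for WT replicate 2 and 2.75 for the sham array. The sham array is alone in its group, so no spread among replicates informs its weight, and no conclusion is drawn from these counts.

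Without WT replicate 1, 2 subunits had an unadjusted p under 0.05 in WT minus sham, as 4.53% of all features did. They were Grik1, with a difference of -1.44 ± 0.37, and Grin3a, with -1.69 ± 0.64 (SE), and the lowest adjusted p of a subunit was 0.768 (limma). In KO minus sham without WT replicate 1, Grik1 alone had one, with a difference of -1.17 ± 0.35 (SE), where 4.93% of all features did. The lowest adjusted p of a subunit was 0.712 there (limma), and 8 of all features passed the threshold (0.0343%). Both WT replicates 2 and 3 were below the sham array in 29 of 31 subunits and in 40.4% of all features. All 3 KO arrays were below it in 14 of 31 and in 25.8%, and the 5 arrays together in 14 of 31 and in 21.8%. By class these 14 were 3 of 4 AMPA, 4 of 6 NMDA, 3 of 5 kainate, 1 of 6 metabotropic, 2 of 8 GABA-A and 1 of 2 GABA-B genes. In 16 of the other 17 KO replicate 2 stood above the sham array, and the 1 left is Grm2.

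Proteins that work with the receptors were read from 4 lists, and none of their members passed the threshold in KO minus WT with all arrays or without WT replicate 1. Of 14 auxiliary subunits of the ionotropic glutamate receptors, 14 were estimated lower, with a median of -0.82, and 6 without WT replicate 1, with a median of 0.06. Cacng8 (-0.79, and -0.17 without that array) and Cacng7 (-0.49, and -0.05), both auxiliary subunits of AMPA receptors, had the smallest p. Of 15 scaffold proteins of the glutamate synapse, 14 were lower, with a median of -0.77, and 4 without WT replicate 1, with a median of 0.05. Homer3 was the exception at 0.50 ± 0.35 (SE), and 0.14 ± 0.14 without WT replicate 1, with -2.44, -2.67 and -2.49 (KO), -3.75, -2.68 and -2.67 (WT) and -2.89 (sham), and Homer2, a binder of group I metabotropic receptors like Homer3, was at -1.04 ± 0.81 and, without that array, -0.12 ± 0.23 (SE). Homer3 was thus lowest, not highest, on the array labelled WT day 3 replicate 1. Of 10 scaffolds and partners of GABA receptors, 9 were lower, with a median of -0.57, and 6 without WT replicate 1, with a median of -0.02. Nlgn2 and Gphn, which anchor GABA-A receptors, were at -0.57 and -0.54, and Gabarap, a trafficking protein that also serves autophagy, was estimated higher at 0.37. Without WT replicate 1 these 3 were at -0.017, -0.014 and -0.04. Of 13 enzymes and transporters of the transmitters, 13 were lower, with a median of -0.72, and 8 without WT replicate 1, with a median of -0.11. Slc17a7 and Slc17a6, which load glutamate into vesicles, had the smallest p, at -2.74 and -1.50, and at -1.50 and -0.55 without that array.

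In WT minus sham no member of the 4 lists passed either, and the list medians were 0.08, 0.16, -0.10 and 0.00 in the same order. Without WT replicate 1 none passed, and the medians were -1.13, -0.64, -0.77 and -0.65. The members with the smallest p over all arrays, each with its value without WT replicate 1 after it, were Cacng5 (-1.21, -1.34) and Shisa6 (-0.90, -1.18) of the auxiliary subunits. Of the glutamate scaffolds they were Shank3 (0.69, -0.02) and Grip1 (-0.47, -1.14). Among the GABA partners they were Kctd12 (-0.37, -0.61), an auxiliary GABA-B receptor subunit, and Gabarap (-0.26, 0.15). Among the transmitter genes they were Glul, the glutamine synthetase of astrocytes, and Slc1a1, a glutamate transporter of neurons. Glul was at 4.70, 4.73 and 4.90 (KO), 4.74, 4.93 and 4.80 (WT) and 4.61 (sham), and Slc1a1 at -0.44, 0.14 and -0.39 (KO), 1.72, -0.07 and -0.18 (WT) and -0.09 (sham). Shank3 was at -0.66, -0.66 and -0.65 (KO), 1.43, -0.70 and -0.72 (WT) and -0.69 (sham), a spread of under 0.1 on 6 arrays with 1 far above.

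By list median, markers of neurons and of striatal neurons ranked the arrays much as the subunits did, while the other lists did not all do so. The part of cell types in the results was not tested. The median of the 31 subunits was -2.49, -0.52 and -2.57 (KO), 1.01, -1.80 and -2.00 (WT) and -0.80 (sham). That of the 12 neuron markers was 1.04, 2.18 and 0.52 (KO), 4.09, 1.83 and 1.47 (WT) and 2.28 (sham). That of 9 markers of striatal neurons was -1.75, 1.46 and -1.53 (KO), 4.47, -0.02 and -0.92 (WT) and 0.95 (sham). In all 3 sets the array labelled WT day 3 replicate 1 is the highest, KO replicate 2 and the sham array come next, and KO replicates 1 and 3 are the lowest. Rbfox3 and Snap25 of the neuron list were estimated lower in KO than in WT by differences of -1.42 and -1.06, and Ppp1r1b of the striatal list by -1.58. Without WT replicate 1 these were -0.37, -0.16 and -0.014. In that fit 11 of 12 neuron markers (median -0.33) and 7 of 9 striatal markers (median -0.14) were estimated lower in KO than in WT. Of the subunits 13 of 31 were, with a median of 0.03. The medians for WT minus sham were then -0.55 for neurons, -1.50 for striatal neurons and -1.11 for the subunits. The sizes of the differences were thus not alike in the 3 sets. Of 7 markers of forebrain excitatory neurons, 7 were highest on WT replicate 1. Their median was -4.56, -4.12 and -3.26 (KO), 0.29, -2.21 and -4.64 (WT) and -3.53 (sham). Below WT replicate 1, this list did not follow the order of those 3 sets.

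Of 8 astrocyte markers, 4 were highest on that array, with list medians of 1.44 to 3.13 (KO), 2.39 to 2.96 (WT) and 3.04 (sham). The 7 oligodendrocyte markers had medians of 2.17 to 3.61 (KO), 2.62 to 2.81 (WT) and 3.42 (sham). Those of 4 markers of their precursors were 0.54 to 1.24, -0.42 to 1.08 and 1.05. Endothelium, with 5 of 6 markers lowest on WT replicate 1, had 1.22 to 2.56, 0.79 to 2.15 and 1.07. Of 7 cerebellar markers 5 were measured, with medians of -3.94 to -2.04, -4.20 to -1.26 and -0.89, and 8 markers of hypothalamus and thalamus had -3.73 to -3.07, -3.98 to -2.31 and -1.86. The medians of these last 2 lists were highest on the sham array. Of the single markers, 2 of the 5 cerebellar and 4 of the 8 of hypothalamus and thalamus were highest on WT replicate 1. On the sham array Pcp2, a marker of cerebellar Purkinje cells, was at -0.89 against -4.20 to -2.04 elsewhere. Its value there is also the list median, as the middle of 5 values. Pcp2 is not among the first members of its list and was named outside the plan. Pmch, a peptide of the lateral hypothalamus, was at -0.46 on the sham array against -4.65 to -2.61 elsewhere. In WT minus sham without WT replicate 1, 3 of the 5 cerebellar markers were estimated lower and 2 higher. Of the 8 markers of hypothalamus and thalamus, 5 were lower and 3 higher.

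**Figure D5:**
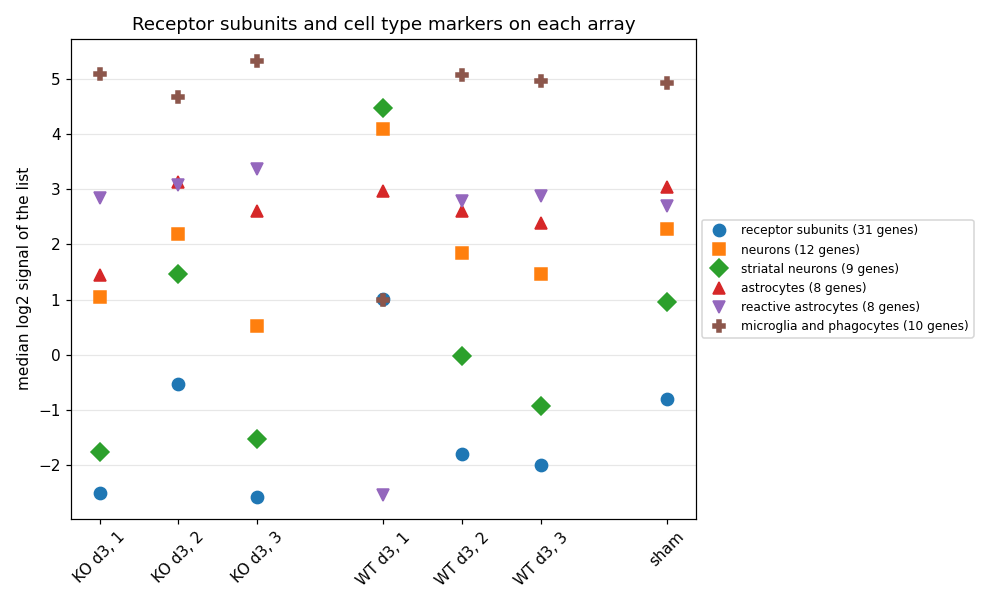
Median log2 signal, relative to the array's 75th percentile (vertical axis), of the 31 subunits and of 5 lists of cell type markers on each array (horizontal axis: KO day 3, WT day 3, sham). On the array labelled WT day 3 replicate 1 the subunits (1.01), neurons (4.09) and striatal neurons (4.47) are at their highest and reactive astrocytes (-2.54) and microglia (1.00) at their lowest.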

How the data were processed

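The authors deposited 1-colour spot intensities, 1 scanner file per array. Per the file headers, software took off local background and spatial and multiplicative trends array by array and put surrogates in place of dim signals (Agilent Feature Extraction 11.5.1.1, per the submitters' processing notes). The deposited value table holds a linear ratio of each processed signal to its array's 75th percentile, found by matching it to the scanner values to within 0.043%. Flags of the scanner software in the deposited files are scores of 0 or 1. The 43020 spots other than controls included 31177 to 34029 well above background per array (72.5% to 79.1%), and none was saturated. Arrays hold no read counts, so the number of arrays limits precision.

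From these, log2 values of the deposited intensities were computed, scaled by each array's 75th percentile. Flagged outlier spots were left out, and spots of a probe were averaged. A probe had to be well above background on 3 or more of the 7 arrays, and the brightest such probe represented its gene. The 3 groups, placed by sample titles, were fitted with limma 3.58.1 in R 4.3.3 (4 residual and 1.68 prior degrees of freedom). The steps were tested on simulated data with independent noise for each gene and array. That setting holds no array that departs in many genes together, so it says nothing on such an array. Ratios were tested with scipy 1.17.1 and plots drawn with matplotlib 3.10.9 in Python 3.11.15. Every subunit is named, and of each further list the 2 genes with the smallest p in KO minus WT and in WT minus sham. Of the marker lists, first members were to be named. Some are given through list medians only, and Pcp2 was named outside that plan. The subunits and lists were chosen with earlier results of these data known. Deviations of same-numbered replicates from their group means had correlations of -0.38, -0.56 and 0.35. The WT group mean holds WT replicate 1, which sways all 3 values, so they cannot decide whether replicates were paired. No pairing was used in the main fit. Alternatives were other background corrections, scalings, filters and probe summaries, array weights, each array left out, and the separate probes and the further lists without WT replicate 1, the last 2 added after seeing the data. Sequences are those of the array design (mm9) and RefSeq (GRCm38.p6), where promoters of 9 subunit genes were not used here. Sequences of the Gabbr2 probes are not reported here.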

Additional observations from a re-analysis of the deposited data

How the results depend on the processing

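In no setting did a subunit pass the threshold in any of the 3 comparisons (limma). The lowest adjusted p was 0.0774 (Grik1, WT minus sham, array weights, limma), a setting that gave the array labelled WT day 3 replicate 1 a weight of 0.0513 and called 2, 151 and 98 features in KO minus WT, WT minus sham and KO minus sham, against 0, 3 and 3 without weights. It gave the sham array a weight of 2.75, with no replicate to judge that weight by. The median subunit difference for KO minus WT, -0.82, was -0.71 with normexp background correction, -0.79 with quantile normalization, -0.35 with array weights and -0.82 with the deposited value table. It was 0.40 when arrays were centred on the neuron markers, which moved the median of all features to 1.19, so that the subunits then lay below the other features, and 24 of 31 changed sign. It was -1.47 to 0.031 when each array was left out in turn, and 0.031 without both the array labelled WT day 3 replicate 1 and the sham array, where 18 of 31 changed sign. With the replicate number as a block the median was -0.82, with 0 subunits and 0 features called and 149 features with an unadjusted p under 0.05 against 197 without the block. For WT minus sham the median of -0.09 became 0.017 with normexp, which moved the median of all features to 0.10, and -0.93 with array weights and -1.11 to 0.43 when each array was left out, the lowest without WT replicate 1 and the highest without WT replicate 3. For KO minus sham it was -1.43 with array weights, -1.57 to -0.72 when each array was left out, and -0.16 with neuron centring, where the median of all features was 1.04. Features called in WT minus sham and KO minus sham were 6 and 8 without WT replicate 1, 0 and 0 with any other day 3 array left out, 1 and 1 with quantile normalization, and 0 and 0 with normexp or with neuron centring. The log2 ratio of Grin2a to Grin2b, at -0.20 for KO minus WT, was 0.18 with the mean of all probes and -0.09 with normexp. Gria2 to Gria1, at 0.65, was 0.25 with the mean of all probes, and Gabbr2 to Gabbr1, at -0.51, was -0.33. With normexp Gabra5 to Gabra2 was -0.16 in place of -0.64, Gabrd to Gabra4 -0.60 in place of -0.16 and Grik2 to Grik5 0.43 in place of 0.16. When each array was left out, Grin2a to Grin2b ranged from -0.36 to -0.02 and Gria2 to Gria1 from 0.12 to 1.14. Grik2 to Grik5 then ranged from -0.013 to 0.37 and Gabra5 to Gabra2 from -1.33 to -0.01. The range of Gabrd to Gabra4 was -0.71 to 0.22 and that of Gabbr2 to Gabbr1 -0.69 to -0.29. The causes of these changes were not tested. Among the probes that represent the genes, signal over background limited only Grin2d, which was not well above it on 2 arrays. Of the dimmer probes, that of Gabra3 was well above background on 5 of 7 arrays and that of Grik3 on 3.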
